A study of Drosophila melanogaster with 30 samples.

Results

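The elements described here are candidate regulatory sequences from 6 early patterning genes of Drosophila melanogaster: the terminal gap genes tailless (tll) and huckebein (hkb), the trunk gap genes hunchback (hb) and Krüppel (Kr), and the head gap genes orthodenticle (also called ocelliless, oc) and empty spiracles (ems). They were taken by name, as every element whose label opens with one of these symbols. This gave 23 of 576 elements in round 1 (tll 4, hkb 1, hb 7, Kr 4, oc 5, ems 2) and 9 of 188 in round 2 (hkb 1, hb 5, Kr 1, oc 2). All 9 elements of round 2 were also listed for round 1 with the same barcode, though several had no count there.

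The assay asks which inserted elements lower the output of a reporter in the mesoderm. Males carried reporters in which a strong, ubiquitous enhancer drives green fluorescent protein (GFP) and a candidate element sits beside it, and they were mated in population cages to females with twi:CD2, which marks mesodermal cells with the rat surface protein CD2. Embryos were collected over 2.25 h and aged for 11 h at 18 °C, and dissociated cells were sorted into low-GFP CD2+ cells, CD2+ cells as control and, in round 1 alone, CD2- cells as a second control. Element DNA was then amplified from the genomic DNA of each sorted pool and sequenced, so every value is an amount of DNA, not of RNA, and the identity of the sorted cells could not be checked against marker genes. All groups share the twi:CD2 cross, and the groups of a round share its reporter pool. The pools of the 2 rounds differ, with 576 and 188 elements listed and 173 of them in both. Every library stems from pooled embryos, and each male carried a random pick from the pool.

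There were 30 libraries, 18 in round 1 and 12 in round 2, from 6 collection days per round. Days 1 to 3 form experiment 1 and days 4 to 6 experiment 2 of each round. Libraries held 3399506 to 5934098 counts in round 1 and 2928510 to 5488936 in round 2. A count of 0 allows up to 3 counts, or 0.399 to 1.71 CPM (counts scaled to a common library size, with the TMM factors used for every CPM value here) in round 1 and 0.471 to 1.13 CPM in round 2. This limit covers counting error only, since reads of PCR products that carry no molecular identifier cannot be treated as independent molecules.

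Gap genes divide the early embryo into broad domains. Maternal gradients and the terminal Torso pathway switch them on, and most of their products are transcription factors that repress one another at their borders. Their regulatory regions are therefore long-standing examples of sequences that carry both activating and repressing inputs. Enrichment of an element in low-GFP cells over the controls is the readout for lower reporter output. A fold change here compares amounts of one element between cell pools, and fewer cells that carry an element cannot be told apart from less DNA recovered per cell.

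Each element is identified by a barcode of 12 bases. The barcodes of the 7 elements on which the results turn are printed as the count tables list them, since these are the tags whose recovery was counted. The tables do not give their orientation relative to the insert.
tll_D3: gtgaagcttggt
hkb_0.6kbRIRV: cttacccagtct
hb_matDm0.5-lacZ: gggcagtctaaa
hb_lateDm1.0-lacZ: gtctataggccc
oc_otd-186: caccagcgtaga
oc_SBg: tctaagacttat
ems_ems_ARFE-subA: taaaggcagaac
No 2 barcodes in either round differed at fewer than 3 positions. The endogenous tll, hkb, hb and ems genes lie on chromosome arm 3R and oc lies on the X chromosome. The tables give neither the position of the elements in the genome nor that of the reporter insertions.

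Of the 23 elements in round 1, 13 had enough counts to be tested, 7 were at 0 in all 18 libraries and 3 had counts but fell under the filter on low counts. All 4 tll elements, the hkb element and both ems elements were tested, against 1 of 7 hb elements, 2 of 4 Kr elements and 3 of 5 oc elements. The elements at 0 throughout were hb_HG4-5, hb_HG4-6, hb_HG4-7, hb_distal_minimal, Kr_H_I, oc_intronic_distal and oc_otd_EHE. The 3 under the filter were hb_0.7, hb_lateDm1.0-lacZ and Kr_KrMT. In round 2, 7 of 9 were tested, and hb_HG4-5 and oc_otd_EHE were again at 0 in every library.

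Low-GFP cells of round 1 held more tll_D3, hkb_0.6kbRIRV, hb_matDm0.5-lacZ and oc_otd-186 and less ems_ems_ARFE-subA than both controls together. These 5 of the 13 tested elements passed an adjusted p of 0.05, 4 of them higher and 1 lower, where 26.0% of all 358 tested elements passed (15.9% higher and 10.1% lower). Against the CD2+ control alone 3 of 13 passed, 2 higher and 1 lower, where 20.7% of all elements did (12.3% higher and 8.38% lower). In round 2, oc_otd-186 and hb_lateDm1.0-lacZ passed among 7 elements, both higher, where 14.2% of all 155 tested elements passed (9.03% higher). The median log2 fold change of the 13 elements was -0.27 against both controls, where that of all elements was -0.61, and the median of the 7 elements in round 2 was 0.80, where that of all was -0.20. DESeq2 called 6 and 7 of the 13 elements in the 2 comparisons of round 1 (33.2% and 29.9% of all elements) and 2 of 7 in round 2 (16.8% of all).

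**Figure D1:**
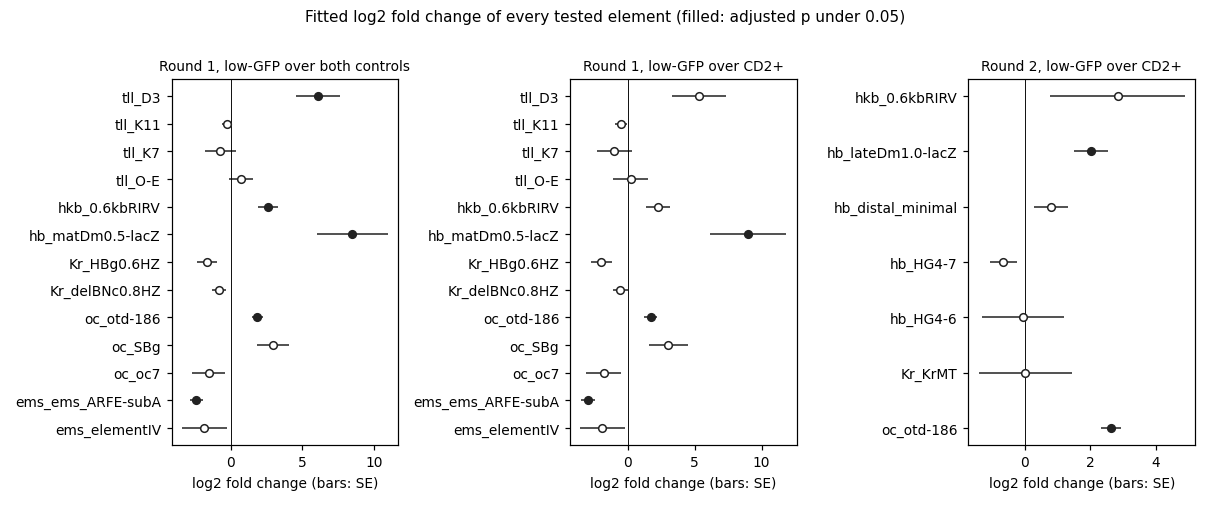
Fitted log2 fold change (horizontal axis) of every tested element of the 6 genes in low-GFP cells, over both controls in round 1, over CD2+ in round 1 and over CD2+ in round 2; bars are standard errors and filled points have an adjusted p under 0.05. Over both controls in round 1 tll_D3 stands at 6.08 (SE 1.53) and tll_K11 at -0.27 (SE 0.37). Both tested Kr elements and both tested ems elements lie below 0 in round 1.

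tailless encodes a nuclear receptor that represses trunk gap genes at both ends of the embryo. One of its 4 elements, tll_D3, made up a mean of 1.51% of low-GFP counts against 0.0624% of CD2+ and 0.0237% of CD2- counts. In CPM, low-GFP libraries held between 10053 and 40103 with a median of 16469.6. CD2+ libraries held 0 to 1703 with a median of 190.1, and CD2- libraries 0 to 767 with a median of 6.28. The groups did not overlap: the lowest low-GFP value was 5.90 times the highest value of any control library. The size of that gap depends on the TMM scaling. As raw shares of library counts the nearest values were closer, at 0.362% (low-GFP, day 4) and 0.196% (CD2+, day 5). Low-GFP groups lay wholly above both controls for 9.50% of all tested elements and wholly above CD2+ for 10.9%.

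The controls of tll_D3 varied far more from day to day than the low-GFP libraries did. On days 2 and 5 it stood at 1009 and 1703 CPM in CD2+ cells and at 321 and 767 CPM in CD2- cells. On days 1 and 3 both controls held under 10 CPM (1.44 and 2.44 CPM in CD2+, 9.58 and 1.33 CPM in CD2-), and on day 6 neither control had a count. The log2 fold change over both controls was 6.08 (SE 1.53, edgeR adjusted p = 0.00529), a fold of 67.4. The size of this value is uncertain, though each of these fits passed: it was 10.59 with the collection day as a block (adjusted p = 0.000555), 5.37 with scaling to total counts, 8.84 without day 2, 7.32 without day 5, and 6.74 without either the CD2+ library of day 2 or the CD2- library of day 5. Over CD2+ alone it was 5.32 (SE 1.99) and missed the threshold (adjusted p = 0.0708). It passed with the collection day as a block (9.73, adjusted p = 0.00751) and with DESeq2 (5.75, adjusted p = 0.000790). It also passed without day 2 (8.30, adjusted p = 0.0477) and without the CD2- library of day 6 (5.60, adjusted p = 0.0330). In the other 30 alternative fits over CD2+ it did not pass. Among these were scaling to total counts (4.65, adjusted p = 0.0974) and each experiment alone (5.23 and 5.46, adjusted p = 0.210 and 0.294).

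The other 3 tll elements showed no such excess. tll_K11 was the most even element of the gene: low-GFP libraries held 2975 to 7975 CPM with a median of 5263, CD2+ libraries 4561 to 13465 with a median of 7904, and CD2- libraries 2649.8 to 10733 with a median of 4618. All 3 ranges overlap, and its log2 fold change over both controls was -0.27 (SE 0.37, adjusted p = 0.644). tll_K7 ranged from 333 to 3862 CPM in low-GFP cells, from 0.222 to 31897 CPM in CD2+ cells and from 1.20 to 5287 CPM in CD2- cells, with a log2 fold change of -0.72 (SE 1.06, adjusted p = 0.653). tll_O-E was all but missing from experiment 1, at 0 to 1.11 CPM in all 9 libraries of days 1 to 3. On days 4 to 6 it held 819 to 5375 CPM in low-GFP, 405 to 1370 CPM in CD2+ and 323 to 1668 CPM in CD2- cells, and its log2 fold change was 0.71 (SE 0.85, adjusted p = 0.586). That value also moved with the settings, to 1.94 with read 2 counts (adjusted p = 0.0733), 1.80 in experiment 2 alone (adjusted p = 0.236), 1.67 without the experiment term (adjusted p = 0.570) and 0.15 with scaling to total counts (adjusted p = 0.928), and passed in none of them.

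**Figure D2:**
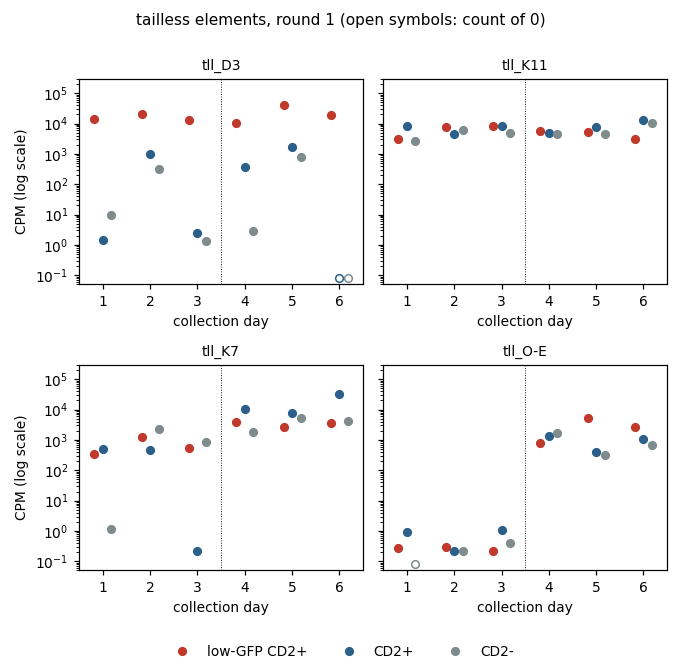
CPM on a log scale (vertical axis) of the 4 tll elements on each collection day of round 1 (horizontal axis), with 1 point per library, coloured by sorted population; open points are counts of 0 and the dotted line parts the 2 experiments. The 6 low-GFP values of tll_D3 run from 10053 to 40103 CPM and all lie above its controls, while the populations overlap for tll_K11, tll_K7 and tll_O-E.

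Elements of one gene were set against each other through the daily log2 ratio of low-GFP over CD2+, since both elements of a pair come from the same 2 libraries and the library scaling cancels. The ratio of tll_D3 exceeded that of tll_K11 on 6 of 6 days, by a mean of 9.51 ± 5.79 (SD, n = 6 days). It exceeded that of tll_K7 by 8.23 ± 6.29, also on 6 of 6 days. The sizes of both means depend on the prior count of 2. In the CD2+ libraries of days 1, 3 and 6 tll_D3 had 6, 11 and 0 counts, and tll_K7 had 1 count in that of day 3. Both differences had an exact two-sided sign-flip p of 0.03125, the smallest that 6 days can give. Adjusted over the 11 pairs of round 1 this is 0.115, so that no pair could pass after adjustment unless more pairs shared the smallest p. The pair of tll_K7 and tll_K11 split 3 days against 3. On days 1 to 3 tll_O-E had 1 count in each low-GFP library and 1 to 5 counts in each CD2+ library. The prior count of 2 thus sets most of its ratio on those days. Its pairs were tested and are among the 11. The pair of tll_D3 and tll_O-E also had an exact sign-flip p of 0.03125, and the adjusted 0.115 rests in part on it. No difference is read from the pairs of tll_O-E. On days 4 to 6 the daily log2 ratio of tll_D3 was 4.73, 4.56 and 15.16, and that of tll_O-E was -0.74, 3.73 and 1.25. The value of 15.16 rests on a CD2+ count of 0 and gives no size.

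huckebein, the other terminal gap gene, encodes a zinc finger factor that sets the limits of the endoderm and of the ventral mesoderm at the poles. Its only element, hkb_0.6kbRIRV, was abundant in round 1 low-GFP cells, from 9620.1 to 81011 CPM with a median of 28611. CD2+ libraries ranged from 1121 to 20302.5 CPM with a median of 5125, and CD2- libraries from 11.5 to 14436 CPM with a median of 2872. The low-GFP and CD2+ ranges overlap. On day 6 the low-GFP library held 17839 CPM and the CD2+ library 18471, and on the other 5 days low-GFP was the higher of the pair. The order on day 6 depends on the scaling. As raw shares of library counts the element stood at 1.90% in low-GFP and 1.78% in CD2+ cells.

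hkb_0.6kbRIRV had a log2 fold change of 2.60 over both controls (SE 0.69, edgeR adjusted p = 0.00814). It missed the threshold without day 4 (2.34, adjusted p = 0.0556) and with scaling to total counts (1.74, adjusted p = 0.0609). Over CD2+ alone it was 2.26 (SE 0.87, adjusted p = 0.0790) and did not pass, though it passed with DESeq2 (adjusted p = 0.00602), without day 1 (adjusted p = 0.0421) and without the CD2- library of day 1 (adjusted p = 0.0146). That CD2- library held 11.5 CPM, where the others held at least 2266. In the other 31 alternative fits over CD2+ the element did not pass.

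In round 2 the hkb element was present in force on only some of the days. Low-GFP cells held 1.96, 2815, 6825, 6.01, 8921 and 24452.5 CPM on days 1 to 6, and CD2+ cells 0.697, 0.318, 1208, 1.41, 3904 and 1381 CPM. Low-GFP was the higher on 6 of 6 days, while days 1 and 4 rest on values of 6.01 CPM or less and the CD2+ library of day 2 held 2 counts, under the limit of 3. The fitted log2 fold change of 2.83 had an SE of 2.05 (edgeR adjusted p = 0.418) and did not pass with the day as a block either (adjusted p = 0.146) or with DESeq2 (2.87, adjusted p = 0.200). The authors' deposited tables give the element folds of 8.15 (adjusted p = 7.35e-05) and 5.20 (adjusted p = 6.59e-06) in experiments 1 and 2 of round 1. For round 2 the authors' deposited tables give folds of 8.58 (adjusted p = 0.00458) and 7.04 (adjusted p = 0.000227), so the authors' calls and the edgeR fit part for this element in round 2.

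hunchback encodes a zinc finger factor that is supplied by the mother and made again by the anterior embryo. Its elements were largely seen in different rounds. In round 1 only hb_matDm0.5-lacZ passed the filter, and it behaved differently in the 2 experiments. On day 1 it had no count in any of the 3 populations. On days 2 and 3 low-GFP cells held 793 and 607 CPM, while CD2+ held 0.453 and 0.222 CPM and CD2- 0.437 and 0.399 CPM. On days 4 to 6 low-GFP cells held 8479.9, 1536 and 1351 CPM, CD2+ cells 328, 992 and 225 CPM, and CD2- cells 1079, 2405 and 0 CPM. On day 5 the CD2- library thus held more of it than the low-GFP library.

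The log2 fold change of hb_matDm0.5-lacZ over both controls was 8.51 (SE 2.49, edgeR adjusted p = 0.0150). The control libraries near 0 in experiment 1 enter this value, and it depends on the experiment term: without that term it was 2.46 (adjusted p = 0.390), close to the log2 ratio of the mean CPM values, 2.34. The call was also lost without day 2 (adjusted p = 0.0924) or day 3 (adjusted p = 0.0843), and with the day as a block, by a narrow margin (6.86, adjusted p = 0.05001). Over CD2+ alone the log2 fold change was 8.99 (SE 2.87, adjusted p = 0.0322), and this was lost without any of days 1 to 4 (adjusted p from 0.0626 to 0.145), with the day as a block (adjusted p = 0.108), or without any of 6 single libraries of days 1 to 4, 4 of them CD2+ and 2 CD2- (adjusted p up to 0.0766). Its interaction of experiment and population was the largest among the 13 elements (log2 difference -8.40, edgeR adjusted p = 0.729). No element of either round passed that interaction by edgeR, and 12 of 358 in round 1 and 2 of 155 in round 2 had an unadjusted p under 0.05.

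hb_0.7 had too few libraries with counts to pass the filter in round 1. It held 125 and 198 CPM in the low-GFP libraries of days 1 and 3 and 269 CPM in the CD2- library of day 3, and at most 1 count in each of the other 15 libraries. With no filter it passed as higher against CD2+ (log2 8.44, edgeR adjusted p = 0.0404) and against both controls (4.53, adjusted p = 0.0486), and in experiment 1 alone it did not pass against either (adjusted p = 0.180 and 0.249). With CD2+ libraries at 0 or 1 count, these log2 values depend on the prior count of the fit and give no size.

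**Figure D3:**
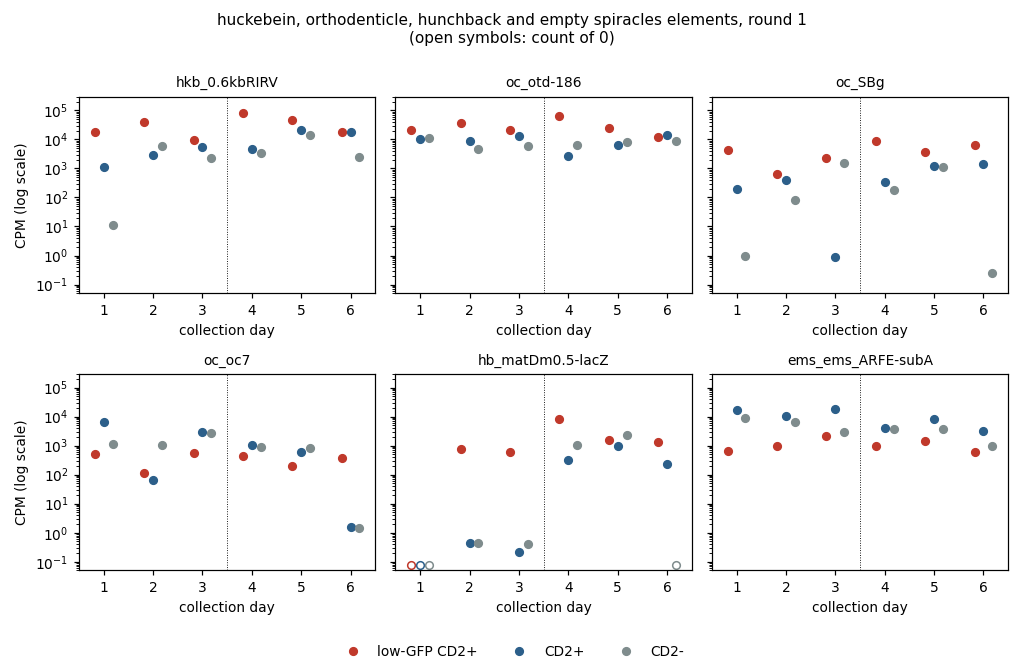
CPM on a log scale (vertical axis) of 6 elements of hkb, oc, hb and ems on each collection day of round 1 (horizontal axis), with 1 point per library, coloured by sorted population; open points are counts of 0 and the dotted line parts the 2 experiments. Low-GFP values of ems_ems_ARFE-subA lie between 617 and 2148 CPM, below all CD2+ values, while those of oc_otd-186 lie between 12386 and 65415.5 CPM.

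A further 4 hb elements could be tested in round 2, of which 3 had no count in round 1. hb_lateDm1.0-lacZ was steady in low-GFP cells, from 5534 to 8126 CPM with a median of 6075, and lower in CD2+ cells, from 391 to 2535 CPM with a median of 2105. In CPM the 2 groups did not overlap, the nearest values being 2.18-fold apart. As raw shares of library counts the nearest values were 0.430% (low-GFP, day 6) and 0.305% (CD2+, day 3). Low-GFP groups lay wholly above CD2+ in CPM for 6.45% of all tested elements. It was 4.07-fold higher in low-GFP cells (log2 2.03, SE 0.52, edgeR adjusted p = 0.0249). The call held with the day as a block (2.23, adjusted p = 0.0214) and was lost without day 1, 2, 3 or 6 (adjusted p from 0.0514 to 0.0847), without the CD2+ library of day 2 (0.0553), without the low-GFP library of day 5 (0.0595) or day 6 (0.0504), and with scaling to total counts (1.54, adjusted p = 0.0706). In round 1 the same element stayed under the filter, at 141, 274 and 596 CPM in low-GFP cells on days 1 to 3, where only day 2 had counts above the limit in the controls (627 CPM in CD2+ and 266 CPM in CD2-).

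The remaining hb elements of round 2 did not pass. hb_distal_minimal differed between the experiments in level: on days 1 to 3 it held 609 to 7947 CPM in low-GFP and 919 to 2684 CPM in CD2+ cells, and on days 4 to 6 it held 19340.4 to 32732 CPM and 10879 to 22543 CPM. Its log2 fold change was 0.80 (SE 0.51, adjusted p = 0.326), with low-GFP higher on 4 of 6 days. hb_HG4-7 had a log2 fold change of -0.65 (SE 0.41, adjusted p = 0.323), with low-GFP libraries at 1969 to 9384 CPM and CD2+ libraries at 4200 to 15074 CPM. hb_HG4-6 was the most uneven, from 187 to 6540 CPM in low-GFP and from 0 to 5014 CPM in CD2+ cells, with a log2 fold change of -0.04 (SE 1.25, adjusted p = 0.992).

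The daily ratio of hb_lateDm1.0-lacZ exceeded that of hb_HG4-7 on 6 of 6 days, by a mean log2 difference of 2.99 ± 1.23 (SD, n = 6 days). It exceeded that of hb_distal_minimal on 6 of 6 days as well, by 1.74 ± 1.62. Both had the smallest exact two-sided sign-flip p, 0.03125, and 0.0938 after adjustment over the 6 pairs of round 2. The ratio of hb_distal_minimal exceeded that of hb_HG4-7 on 5 of 6 days, by 1.24 ± 1.13 (exact p = 0.09375, adjusted p = 0.188). Pairs with hb_HG4-6 went both ways, with SDs of 4.25 to 5.15.

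**Figure D4:**
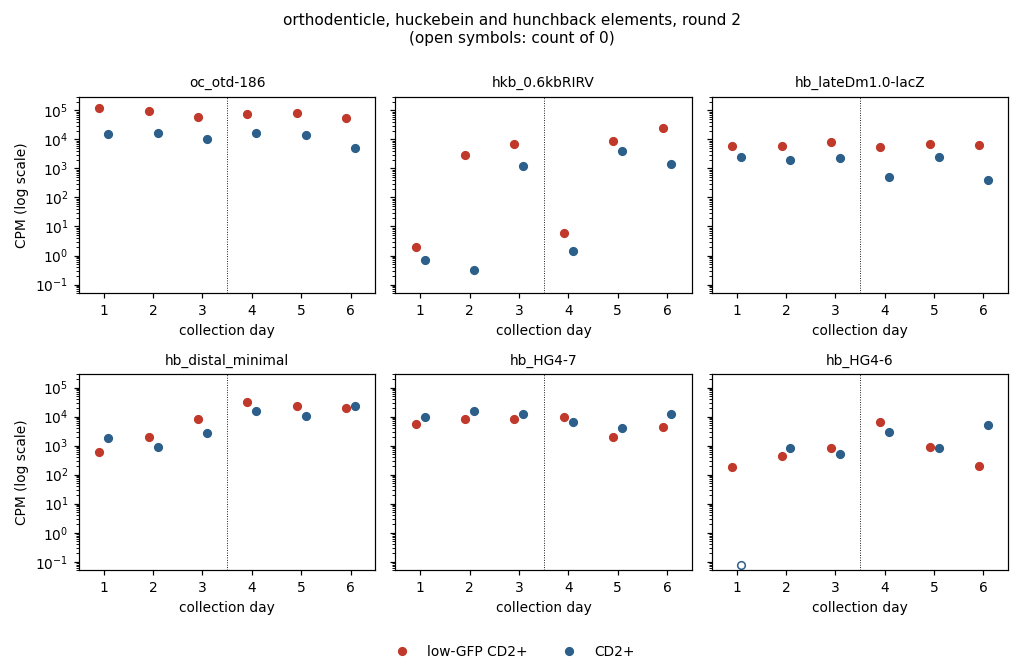
CPM on a log scale (vertical axis) of 6 elements of oc, hkb and hb on each collection day of round 2 (horizontal axis), with 1 point per library, low-GFP CD2+ and CD2+; open points are counts of 0 and the dotted line parts the 2 experiments. The low-GFP and CD2+ values of oc_otd-186 (53256 to 123896 against 4921 to 16555 CPM) and of hb_lateDm1.0-lacZ do not overlap, while those of the other 4 elements do.

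Krüppel encodes a zinc finger repressor of the central embryo. Both of its elements tested in round 1 had negative log2 fold changes that did not pass by edgeR with TMM scaling and all libraries. Kr_HBg0.6HZ held 264 to 1125 CPM in low-GFP cells with a median of 518, 428 to 9372 CPM in CD2+ cells with a median of 1637, and 606 to 3244 CPM in CD2- cells with a median of 1511. Its log2 fold change was -1.63 over both controls (SE 0.69, edgeR adjusted p = 0.0978) and -1.98 over CD2+ (SE 0.77, adjusted p = 0.0790). With DESeq2 it passed as lower than CD2+ (-1.73, adjusted p = 0.0308) but not as lower than both controls (-1.34, adjusted p = 0.0559). Day 4 was the only one on which its low-GFP value, 1125 CPM, exceeded CD2+, 428 CPM. Without day 4 it passed against both controls (-2.21, adjusted p = 0.0427) and against CD2+ (-2.63, adjusted p = 0.0336), and without the low-GFP library of that day it passed against CD2+ (-2.41, adjusted p = 0.0423).

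Kr_delBNc0.8HZ had the narrower spread, with low-GFP libraries at 508 to 2617 CPM, CD2+ libraries at 693 to 3490.2 CPM and CD2- libraries at 1650.3 to 4402 CPM. Its log2 fold change over both controls was -0.84 (SE 0.50, adjusted p = 0.258). Its daily ratio was above that of Kr_HBg0.6HZ on 5 of 6 days, by 1.10 ± 1.55 (SD, n = 6 days), which did not pass (exact p = 0.15625, adjusted p = 0.401). With scaling to total counts, which lowers the median of all elements by a further 0.63, both Kr elements passed as lower than both controls (adjusted p = 0.0158 and 0.0395). Kr_KrMT could be tested only in round 2. There it held 1.13 to 624 CPM in low-GFP and 0.879 to 995 CPM in CD2+ cells, with a log2 fold change of 0.02 (SE 1.42, adjusted p = 0.992).

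orthodenticle encodes a homeodomain factor of the anterior head and later of the eye and ocelli. oc_otd-186 was called in both rounds and was the most abundant of the tested elements of these genes in round 2, at a mean of 6.79 ± 1.99% (SD, n = 6) of low-GFP counts against 1.55 ± 0.548% of CD2+ counts. In round 1 it held 12386 to 65415.5 CPM in low-GFP cells with a median of 23328. CD2+ cells held 2605 to 14326 CPM with a median of 9651, and CD2- cells 4626 to 10842 CPM with a median of 7055. The low-GFP values all exceeded those of CD2- and overlapped those of CD2+, since day 6 gave 12386 CPM in low-GFP and 14326 CPM in CD2+ cells.

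The round 1 log2 fold change of oc_otd-186 was 1.87 over both controls (SE 0.38, edgeR adjusted p = 0.000987) and 1.70 over CD2+ (SE 0.46, adjusted p = 0.0125). The former passed at a smaller value with scaling to total counts (1.03, adjusted p = 0.0133). The latter was lost without day 4 (1.12, adjusted p = 0.0553), without day 5 (1.68, adjusted p = 0.0551) and with scaling to total counts (adjusted p = 0.0653). In round 2 low-GFP cells held 53256 to 123896 CPM with a median of 76357, and CD2+ cells 4921 to 16555 CPM with a median of 14995. In CPM the 2 groups did not overlap, and the nearest values were 3.22-fold apart. Low-GFP lay wholly above CD2+ for 6.45% of all tested elements. As raw shares of library counts the nearest values were closer, at 3.69% (low-GFP, day 6) and 2.20% (CD2+, day 2). The amount in low-GFP cells was 6.17-fold that in CD2+ cells (log2 2.63, SE 0.30, adjusted p = 5.61e-05), and it passed under every alternative run, from 2.12 to 3.30. The authors' deposited tables give folds of 2.90 and 4.96 in the experiments of round 1 and 6.64 and 6.37 in those of round 2, with adjusted p-values of 0.0310, 0.000429, 6.05e-08 and 8.36e-22. Whether the round 1 and round 2 values differ was not tested, because the libraries of elements differ.

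Of the other oc elements, oc_SBg was higher in low-GFP cells than in CD2+ cells on 6 of 6 days. It held 641 to 8896 CPM in low-GFP cells with a median of 4015, 0.888 to 1462 CPM in CD2+ cells with a median of 373, and 0.252 to 1484 CPM in CD2- cells with a median of 129. The groups overlap only through day 2, whose low-GFP library held 641 CPM. Its log2 fold change of 2.95 over both controls (SE 1.14, edgeR adjusted p = 0.0643) did not pass. It passed with DESeq2 (3.32, adjusted p = 0.00613), without day 3 (3.93, adjusted p = 0.0149), without the CD2- library of day 3 (3.93, adjusted p = 0.0163) and without that of day 6 (2.98, adjusted p = 0.0335). In the other 30 alternative fits over both controls oc_SBg did not pass. The authors' deposited tables call it in both experiments of round 1, at folds of 7.11 (adjusted p = 0.0363) and 9.60 (adjusted p = 0.00220). Over CD2+ alone it was 3.02 (SE 1.47, adjusted p = 0.174).

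oc_oc7 had a log2 fold change of opposite sign, -1.54 over both controls (SE 1.17, adjusted p = 0.378). Low-GFP libraries held 117 to 541 CPM, CD2+ libraries 1.58 to 6312 CPM and CD2- libraries 1.51 to 2709.7 CPM, and day 6 had under 2 CPM in both controls. The daily ratio of oc_SBg exceeded that of oc_oc7 on 4 of 6 days, by 4.15 ± 6.498 (SD, n = 6 days, exact p = 0.1875, adjusted p = 0.401). It exceeded that of oc_otd-186 on 4 of 6 days, by 2.37 ± 4.18 (exact p = 0.21875, adjusted p = 0.401). The ratio of oc_otd-186 exceeded that of oc_oc7 on 5 of 6 days, by 1.78 ± 4.90 (exact p = 0.375, adjusted p = 0.589). The ratio of oc_SBg on day 3 rests on 4 CD2+ counts and that of oc_oc7 on day 6 on 6 CD2+ counts, so these sizes depend on the prior count.

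empty spiracles encodes a homeodomain factor of the head and of the posterior spiracles. ems_ems_ARFE-subA was the only element of the 6 genes called as lower in low-GFP cells by edgeR with TMM scaling and all libraries. It held 617 to 2148 CPM in low-GFP cells with a median of 976, 3251 to 18201 CPM in CD2+ cells with a median of 9547, and 952 to 8922 CPM in CD2- cells with a median of 3744. Low-GFP lay wholly below CD2+, the nearest values being 1.51-fold apart, as it did for 4.19% of all tested elements, and it overlapped CD2-. The log2 fold change was -2.41 over both controls (SE 0.48, edgeR adjusted p = 0.000883) and -2.98 over CD2+ (SE 0.52, adjusted p = 0.000513), and both calls held whichever day or library was left out.

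The second ems element, ems_elementIV, had a log2 fold change of -1.85 over both controls (SE 1.56, adjusted p = 0.430). It held 0 to 701 CPM in low-GFP cells, 124 to 1042 CPM in CD2+ cells and 0 to 1629.6 CPM in CD2- cells. The daily ratios of the 2 ems elements did not separate: that of ems_ems_ARFE-subA was the higher on 2 of 6 days (exact p = 0.875).

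Within each experiment, with 3 days per population, the direction of each call was the same in both wherever the element could be fitted. Over both controls in round 1, tll_D3 had log2 fold changes of 6.07 in experiment 1 and 6.14 in experiment 2, hkb_0.6kbRIRV 2.60 and 2.40, and oc_otd-186 1.24 and 2.13, none of which passed alone (edgeR adjusted p from 0.0523 to 0.137). ems_ems_ARFE-subA passed in experiment 1 (-3.18, adjusted p = 0.0167) and not in experiment 2 (-1.73, adjusted p = 0.141), and the interaction between experiments did not pass for it (adjusted p = 1.00). hb_matDm0.5-lacZ was under the filter in experiment 1 and had a log2 fold change of 2.49 in experiment 2 (adjusted p = 0.348). In round 2, oc_otd-186 passed in both experiments (2.73 in each, adjusted p = 0.00432 and 0.0222), and hb_lateDm1.0-lacZ in neither (1.57 and 2.66, adjusted p = 0.0900 and 0.247). In the authors' deposited tables some calls stand in 1 experiment only. Adjusted p-values in experiments 1 and 2 were 0.0238 and 0.442 for ems_ems_ARFE-subA, 0.000178 and 0.198 for hb_matDm0.5-lacZ, and 0.208 and 0.00471 for hb_lateDm1.0-lacZ in round 2. There tll_D3 has a fold of 79.0 in experiment 1 and is not listed in experiment 2 of round 1.

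The 2 control populations of round 1 were compared with each other as pools that had not been selected for low GFP. No element of the 6 genes and no element of the library passed in CD2+ against CD2- by edgeR (0% of 358). Before adjustment 6 elements had a p under 0.05. DESeq2 called 3 (0.838%), none of them among the 13. Among the 13, the lowest p before adjustment was that of ems_ems_ARFE-subA, with a log2 fold change of 1.14 in CD2+ over CD2- cells (SE 0.49, edgeR adjusted p = 0.999), and the largest log2 fold change was that of tll_D3, 1.51. The 4 tll elements had log2 fold changes of 0.52 to 1.51 in this comparison, and the 13 elements had a median of 0.54, where all elements had 0.04.

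The elements of the 6 genes together made up 4.40 to 9.57% of the counts of a low-GFP library in round 1, 4.05 to 8.59% in CD2+ and 3.53 to 5.71% in CD2- libraries. In round 2 they made up 7.51 to 11.7% in low-GFP and 3.24 to 5.42% in CD2+ libraries, without overlap, and oc_otd-186 supplied most of the low-GFP share. Elements of 33 other segmentation genes, chosen by symbol, served as a further comparison; 17 of these genes had an element in round 1 and 11 in round 2. Of their 29 tested elements in round 1, 5 were higher and 5 lower than both controls, with a median log2 fold change of -0.55. Of 11 tested in round 2, 1 was higher and none lower by edgeR, with a median of 0.14. The elements whose names say E. coli, taken here as controls, had medians of -2.04 over both controls in round 1 (8 tested, 1 higher) and -0.68 in round 2 (12 tested, 4 lower).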

How the data were processed

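The deposited files give, per library, the count of mapped reads for every barcoded element, separately for read 1 and read 2. Empty cells were read as 0. A further 4 tables hold the authors' comparisons for each experiment. Per the file headers their columns are normalized means (a signal), the ratio of low-GFP to control means, the log2 of that ratio, and raw and adjusted p-values. DESeq is named in the submitters' processing notes. Neither its version nor the read mapper is given in the sources used here. No column of other samples was present.

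Read 1 counts were analysed. They correlated with read 2 at 0.996 or more on a log scale in every library. Elements were filtered with filterByExpr at a minimum count of 10, scaled by TMM and fitted with edgeR 4.0.16 in R 4.3.3 (quasi-likelihood, population and experiment as terms). P-values were adjusted by Benjamini-Hochberg over all elements of a comparison, with 0.05 as the threshold for a call. An SE is the log2 fold change divided by the root of its F statistic, so it restates the test. CPM values are TMM-scaled and can exceed raw shares. Fits were also run on simulated data, whose outcome is not given here, so nothing about the results is concluded from that run. The simulated counts were drawn from the fitted spread without day or experiment effects. They do not cover elements that were near 0 for whole days. Daily log2 ratios used a prior count of 2, and pairs of elements were compared by exact sign-flip tests over 6 days. Biological coefficients of variation came to 1.46 (round 1) and 1.10 (round 2).

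Each collection day is a replicate. Dates in the labels mark libraries of a shared day, and 17 of 18 pairs of same-day libraries in round 1 and 5 of 6 in round 2 deviated together at a correlation over 0.1 (medians 0.221 and 0.474). No 2 libraries held identical counts. Alternatives were other scalings, DESeq2 1.42.0, no filter, read 2, the day as a block, no experiment term, each experiment alone, and leaving out each day or library.

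Every element of the 6 genes is accounted for, and those called in any comparison, with the others of the same gene, are given by value. The elements and lists were chosen with earlier results of these data known. No genome or element sequence was used here, and the tables give no coordinates.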

Additional observations from a re-analysis of the deposited data

Results flagged for a closer look

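In 53 groups of 6 libraries, 1 library's CPM stood far from the other 5 in 7 groups, measured by its gap to the nearest value over the whole range, on a log2 scale with a prior count of 2; chance alone flags about 5 in 100 groups. All 7 were low values. The hb_matDm0.5-lacZ element had 0 CPM in the round 1 low-GFP library of day 1, where the other 5 had a median of 1351, and both controls of that day were at 0 too. The hkb_0.6kbRIRV element had 11.5 CPM in the round 1 CD2- library of day 1 (median of the others 3318), and tll_K7 had 1.20 CPM in that same library (2278). The oc_SBg element had 0.888 CPM in the CD2+ library of day 3 (411), and oc_oc7 had 1.51 CPM in the CD2- library of day 6 (1078), with 1.58 CPM in CD2+ cells of that day. In round 2, Kr_KrMT had 1.13 CPM in the low-GFP library of day 4 (424), with 0.879 CPM in the CD2+ library of that day, and hb_HG4-6 had 0 CPM in the CD2+ library of day 1 (849).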

How the results depend on the processing

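The numbers pair the libraries of a day, and with the collection day as a replicate block 4 elements passed against both controls, 3 against CD2+ in round 1 and 2 in round 2. In the main fit 26.0%, 20.7% and 14.2% of all tested elements passed these comparisons. The shares under the day block are not given here, so no excess among the elements of the 6 genes is read from these counts. The changed calls were hb_matDm0.5-lacZ, lost against both controls (6.86, adjusted p = 0.05001) and against CD2+ (6.86, 0.108), and tll_D3, gained against CD2+ (9.73, 0.00751). Each experiment alone, with fewer libraries, gave fewer calls. In round 1 against both controls 1 element of the 6 genes was called in experiment 1 and 0 in experiment 2. Over the whole library 48 and 43 elements were called. Against CD2+ the calls were 1 and 0 in round 1 (14 and 6 over the library) and 1 and 1 in round 2 (8 and 8). The numbers tested in these fits are not given here, so no excess is read from these counts either. DESeq2 called 7 elements against CD2+ in round 1, adding tll_D3, hkb_0.6kbRIRV, oc_SBg and Kr_HBg0.6HZ, and 3 elements of the library in CD2+ against CD2-, where edgeR without 1 library at a time called 0 to 1. Scaling to total counts left 1 of the 2 calls in round 2 and lost hkb_0.6kbRIRV against both controls (1.74, adjusted p = 0.0609). It turned the split of all calls against both controls from 57 higher and 36 lower to 47 and 56, that against CD2+ in round 1 from 44 and 30 to 39 and 48, and that in round 2 from 14 and 8 to 8 and 17, with the median of all elements lower by 0.63, 0.54 and 0.51 (shifts of -0.63, -0.54 and -0.51). Scaling to the E. coli elements gave splits of 58 and 27, 41 and 18, and 23 and 2 (shifts of 0.14, 0.22 and 0.61). Against both controls these scalings gave 3 higher and 3 lower, and 4 higher and 1 lower, among the 13 elements. Without 1 day or 1 library, the calls in round 2 ran from 1 to 2 among these elements and from 9 to 33 among all elements. Values that changed sign were all from elements that no fit of that comparison called: tll_K11 against both controls with E. coli scaling (0.10) and DESeq2 (0.093) and between -0.44 and 0.15 without a day or library, tll_O-E against both controls (-0.13 to 1.24 without a day or library) and against CD2+ (-0.30 with total counts, -0.68 to 0.76 without a day or library), tll_K7 against CD2+ in experiment 1 (0.77), Kr_KrMT in round 2 with total counts (-0.60), read 2 (-0.12), no experiment term (-0.16), experiment 1 (-0.84) and without a day or library (-0.36 to 0.55), and hb_HG4-6 in round 2 with E. coli scaling (0.51), the day block (0.32), experiment 1 (0.12), experiment 2 (0.0025) and without a day or library (-0.94 to 0.45). The causes were not tested. The differences between elements of one gene with a value in the report kept their direction in every alternative run. These were prior counts of 0.5 and 10, read 2, both controls as reference and leaving out any 1 day. None passed after adjustment in any of them. Without 1 day the sign-flip test cannot reach 0.05, and with all 6 days a pass would need more pairs at the smallest p. Staying above the threshold is therefore no check on these differences. Counts near the limit of 3 per library, as for hkb_0.6kbRIRV on days 1, 2 and 4 of round 2 and hb_matDm0.5-lacZ in experiment 1, limit what depth can show for those days.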
